A study of Oryza sativa Indica Group with 6 samples.

Results

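ITPK1 (LOC4347947, also named OsITPK1 and OsITL2) is a rice gene for an inositol phosphate kinase, and its transcript level was followed here in 3 insertion lines. The gene was read by 1 probe set, which the probe table assigns to no other gene, among 17905 genes that have a probe set of their own. It was selected on its measured signal in these same 6 arrays, which was high in one line and low in the other two, so its levels are given as a description, with no test. Chromosome 10 holds the gene in the rice reference used for gene names, assembly ASM3414082v1 of the Oryza sativa Japonica Group. The sequences of the probes, the promoter and the protein were not used here.

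The samples were seedlings of the T-DNA insertion mutants OsPE, Osoc and Ossl in a Basmati background, labelled Oryza sativa Indica Group, taken 15 days after germination under optimal growth conditions, with no other treatment given. Each line had 2 arrays, described as biological replications, and each array received biotin-labelled RNA made from 8 ug of total RNA. All 3 lines carry an insertion, and every comparison here is between mutants. The sources used here do not state the sites of insertion, the number of independent events per line or the organ sampled, and arrays of untransformed plants were not analysed here. Whether a line was grown from separate batches is not stated. The tests therefore rest on the spread between arrays of the same line, pooled over all 3 lines. That spread was also drawn towards the spread of probe sets of like signal.

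Inositol phosphate kinases add phosphate groups to inositol phosphates on the way from myo-inositol to phytic acid, the form in which cereal grains store phosphorus. Enzymes of the same pathway also make inositol pyrophosphates, which SPX domain proteins bind when phosphate is plentiful. SPX proteins with a bound pyrophosphate hold back PHR transcription factors, which otherwise switch on phosphate transporters and other starvation genes. In Arabidopsis the ITPK1 enzyme takes part in making these pyrophosphates and in phosphate balance, and the jasmonate receptor COI1 holds an inositol phosphate as a cofactor.

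ITPK1 had its highest signal in OsPE, at 4549.9 on replicate 1 and 4333.0 on replicate 2. In Osoc the signals were 1558.0 and 1534.6. In Ossl they were 1616.2 and 1611.9. Both OsPE arrays thus lay far above the 4 arrays of the other lines, and the arrays of no 2 lines overlapped. The mean was 4441 ± 153.4 (SD, n = 2) in OsPE, 1546 ± 16.55 in Osoc and 1614 ± 3.041 in Ossl. All 6 signals were far from the dim end of the scale, since the 40th percentile of the arrays, below which most readings are near background, lay between 22.5 and 26.0.

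The order of the lines was OsPE, Ossl and Osoc, with a wide step after the first and a narrow one after the second. Osoc had 34.8% of the OsPE signal and Ossl 36.3%. On the scale log2(signal + 16), on which an offset of 16 damps the noise of dim spots, Osoc minus OsPE was -1.51 and Ossl minus OsPE was -1.45, which are 2.85-fold and 2.73-fold. The gap between the nearest arrays was 2775.0 signal units for Osoc against OsPE and 2716.8 for Ossl against OsPE. These comparisons share the OsPE arrays, so they are not independent of each other. Ossl minus Osoc was 0.06 (log2), a difference of 67.8 signal units with a gap of 53.9 between the nearest arrays. That log2 difference was 0.04 when every array was centred on its median.

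**Figure D1:**
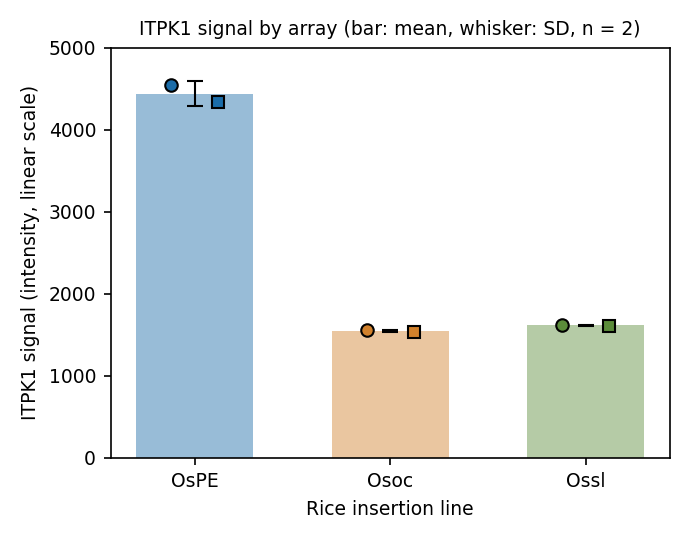
ITPK1 signal (linear intensity) in each line, with bars for the mean, whiskers for the SD (n = 2) and a circle and a square for replicates 1 and 2. The OsPE arrays stand at 4549.9 and 4333.0, and the other 4 arrays lie between 1534.6 and 1616.2.

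Separation of the arrays by itself was common. Of the 39629 probe sets tested, 49.2%, 49.2% and 49.9% had arrays that did not overlap in Osoc against OsPE, in Ossl against OsPE and in Ossl against Osoc. By direction, 27.2% had both Osoc arrays below both OsPE arrays, 26.4% had both Ossl arrays below both OsPE arrays, and 25.3% had both Ossl arrays above both Osoc arrays. The size of the ITPK1 differences from OsPE was less common. ITPK1 was selected on these same signals, so the ranks that follow are a description and lend no support. In Osoc against OsPE 171 other probe sets (0.432%) were lower by at least as much, and in Ossl against OsPE 271 (0.684%) were. In Ossl against Osoc 17333 (43.7%) were higher by at least as much. Both differences from OsPE were at least as large as those of ITPK1 in 39 other probe sets, and in 9 of these the Ossl and Osoc means were within 0.1 (log2) of each other.

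In RNA from many cell types, fewer cells of a type and less RNA per cell cannot be told apart. All 6 leaf markers that could be measured were above the 40th percentile on all 6 arrays, and their summed signal, mostly CAB2R, RBCS and RCAA1, ranged from 124700 to 147600 per array. PORA, a chlorophyll synthesis gene, was 2.24-fold higher in Osoc than in OsPE (adjusted p = 1.22e-05 with limma) and 2.1-fold lower in Ossl than in Osoc (adjusted p = 8.36e-06). In Ossl against Osoc CAB2R was also higher (1.18-fold, adjusted p = 0.0341) and PORB lower (1.16-fold, adjusted p = 0.0345). In Ossl against OsPE 0 of the 6 passed on their brightest probe sets, and 2 had an unadjusted p below 0.05. A dimmer probe set of RCAA1 was lower in Ossl, 1.24-fold against OsPE and 1.37-fold against Osoc (adjusted p = 0.00392 and 0.000186 with limma). Its other dimmer probe sets were 1.16-fold and 1.17-fold lower in Ossl than in Osoc (adjusted p = 0.00989 and 0.00848) and did not pass against OsPE. Of 5 root markers, Lsi1, a silicon transporter of roots, was above the 40th percentile on all arrays, and Lsi2 on none. The root markers summed to 1729 in OsPE, 1665 in Osoc and 1492 in Ossl on average. Most of this sum was Lsi1, at 1621 ± 74.2, 1570 ± 7.42 and 1418 ± 10.1. Of the other root markers tested, all dim, NAS2 had the same order (70.4, 42.7 and 8.35). IRT1 (18.8, 2.5 and 39.55) and NAS1 (12.05, 47.55 and 17.7) had other orders. Of 9 grain markers 4 were above it on all arrays and GLUA1 on none, with sums of 2086, 1683 and 1709. Most of the grain sum was GLUA2, at 1389 ± 4.31 in OsPE, 1126 ± 55.4 in Osoc and 1176 ± 14.8 in Ossl (adjusted p = 0.0537 and 0.124 against OsPE). GBSS1 (434.4, 310 and 297.5) and RAG2 (126, 76.85 and 92.15) were also highest in OsPE, while GLUB5 read 69.25, 73.3 and 84.3. The next probe sets of GLUA2 (106.8, 168.1 and 104.6) and GBSS1 (151.4, 160.4 and 120.4) were highest in Osoc. With limma 0 of 6 grain and 0 of 4 root markers tested passed in any comparison. Of all genes tested, 11.9% passed in Osoc against OsPE, 11.7% in Ossl against OsPE and 17.1% in Ossl against Osoc. At an unadjusted p below 0.05 there were 2, 2 and 0 grain markers and 1, 2 and 1 root markers in Osoc against OsPE, Ossl against OsPE and Ossl against Osoc. The part of these markers in the ITPK1 difference was not tested.

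Control probe sets also differed among the lines. The poly-A control RNAs, which are added during preparation, averaged 8.24 in OsPE, 8.48 in Osoc and 7.31 in Ossl at their 5' ends, and 9.51, 9.52 and 9.10 at their 3' ends (log2 of signal + 16), so they were lower in Ossl. A 28S ribosomal RNA probe set read 7581.7 and 7359.3 in OsPE, 5576.7 and 5550.6 in Osoc, and 5601.4 and 5717.4 in Ossl, high and low in the same lines as ITPK1. An 18S probe set read 7611.4 and 8083.4 in OsPE, 4048.9 and 4196.9 in Osoc, and 7673.8 and 8021.8 in Ossl, low in Osoc. A 25S probe set was low in Ossl, at 1202.8 and 1322.2, against 2088.5 to 2321.9 on the other arrays. The part of these controls in any difference was not tested.

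The other genes of the pathway were tested with limma, with p-values adjusted over all 39629 probe sets (Benjamini-Hochberg) and a threshold of 0.05. The lists covered inositol phosphate kinases, myo-inositol synthesis and use, phosphoinositide kinases, phosphate sensing and transport, and COI1 receptors. Each gene was represented by its brightest probe set. Of 33 measured genes other than ITPK1, 29 passed the filter on low signals. Among all probe sets 7.46% were called in Osoc against OsPE, 7.92% in Ossl against OsPE and 11.2% in Ossl against Osoc. Of the 29 genes, 1 was higher and 5 were lower in Osoc than in OsPE, or 20.7%, where 11.9% of all 16455 genes tested were called (5.77% higher and 6.14% lower). In Ossl against OsPE 2 were higher and 2 were lower, or 13.8%, against 11.7% of all genes (6.99% higher and 4.7% lower). In Ossl against Osoc 4 were higher and 1 was lower, or 17.2%, against 17.1% of all genes (10.1% higher and 6.99% lower). The last 2 shares were near the background. The share in Osoc against OsPE rests on 6 genes, and on 4 with median centring or with no filter, and no set test was run. The medians of the 29 genes were -0.12, -0.03 and 0.10 (log2) in these comparisons, and those of all genes were -0.04, -0.01 and 0.02.

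Among the other inositol phosphate kinases, the ITPK family had ITPK2, ITPK3 and ITPK5 tested, and none passed in any comparison. Of all genes tested, 11.9% passed in Osoc against OsPE, 11.7% in Ossl against OsPE and 17.1% in Ossl against Osoc. With so few genes tested, none passing is near those shares. ITPK2, also named DSM3 and known in rice for its part in drought and salt tolerance, read 1589 ± 73.5 in OsPE, 1476 ± 281 in Osoc and 1335 ± 23.7 in Ossl. Its difference from OsPE was -0.12 in Osoc, with a 95% interval of -0.36 to 0.13, and -0.25 in Ossl, with an interval of -0.49 to 0.00 (log2; adjusted p = 0.65 and 0.238). The Osoc arrays of ITPK2, at 1674.8 and 1276.9, lay on both sides of the OsPE arrays.

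ITPK3 read 9750 ± 41.7 in OsPE, 10370 ± 152 in Osoc and 9488 ± 92.6 in Ossl. Its differences from OsPE were 0.09 (interval -0.03 to 0.20) and -0.04 (interval -0.15 to 0.07), with adjusted p = 0.401 and 0.748. A dimmer probe set of ITPK3 gave adjusted p = 0.753 and 0.992. On the brighter one Ossl minus Osoc was -0.13 (interval -0.24 to -0.01), with adjusted p = 0.159 with limma. ITPK5 read 841.5 ± 63.1, 771.4 ± 153 and 769.0 ± 37.5, and differed from OsPE by -0.13 in both lines (intervals -0.42 to 0.15 and -0.41 to 0.16). The intervals of these 3 genes did not reach the differences measured for ITPK1. ITPK1 was selected on those differences, so this is a description and no test. ITPK4 exceeded the 40th percentile on 1 array and was not tested.

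Of the kinases outside the ITPK family, IPK1, which adds the last phosphate of phytic acid, read 1110 ± 25.6 in OsPE, 1101 ± 196 in Osoc and 1018 ± 2.4 in Ossl, and did not pass (adjusted p = 0.951 and 0.62 against OsPE). IPK2, which acts on earlier inositol phosphates of the pathway, read 181.9 ± 54.2, 164.6 ± 36.3 and 251.1 ± 1.98. Its highest signals were in Ossl, 0.58 above Osoc (log2; adjusted p = 0.169), which did not pass either.

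Lpa1, whose loss lowers phytic acid in rice grain, fell 1.58-fold in Osoc against OsPE. Its signals were 608.5 and 699.3 in OsPE, 340.5 and 483.0 in Osoc, and 528.3 and 586.4 in Ossl. The Osoc arrays were the lowest and did not overlap the others. The difference of -0.66 ± 0.16 (log2, SE) had adjusted p = 0.0257, and the call ended without OsPE replicate 1 (adjusted p = 0.076), OsPE replicate 2 (0.201) or Osoc replicate 1 (0.194), and with no filter on low signals (0.0695). Ossl did not pass against OsPE (-0.22, adjusted p = 0.496) or against Osoc (0.44, adjusted p = 0.11). Lpa1 was placed in the list of inositol phosphate kinases by its name, and what its product does was not examined. Of the 6 genes of that list tested, Lpa1 alone passed in Osoc against OsPE. In Ossl against OsPE and against Osoc 0 of 6 passed with limma, where 1 and 3 had an unadjusted p below 0.05. Of all genes tested, 11.9% were called in Osoc against OsPE, 11.7% in Ossl against OsPE and 17.1% in Ossl against Osoc.

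**Figure D2:**
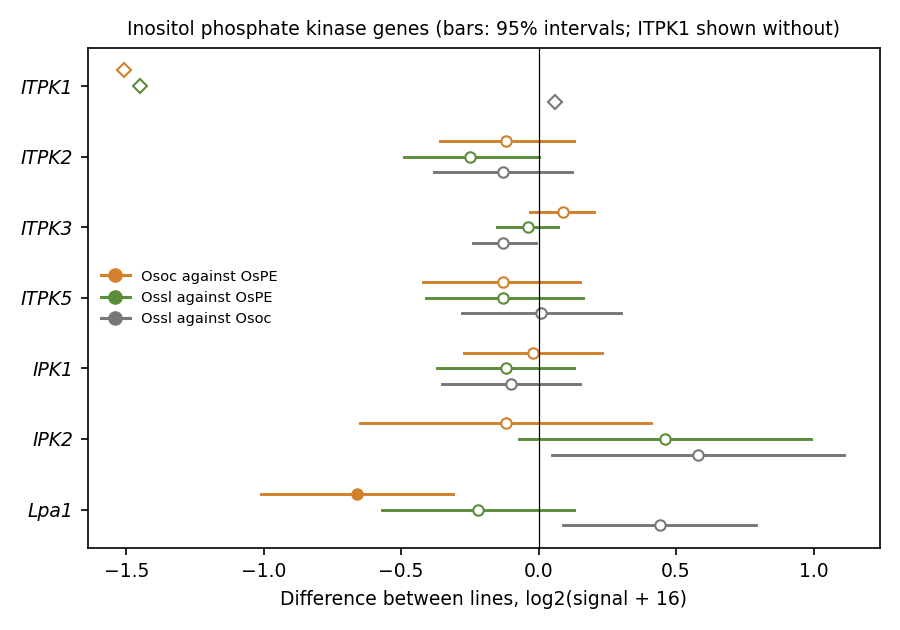
Differences between lines for the genes listed as inositol phosphate kinases, on the scale log2(signal + 16). Bars are 95% intervals from limma, and filled symbols mark adjusted p below 0.05. ITPK1 (diamonds, no interval) stands at -1.51 and -1.45 against OsPE, and the other ITPK genes lie between -0.25 and 0.09 in those comparisons.

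Of the 3 measured genes of myo-inositol synthesis and use, RINO1 and RFS passed against OsPE, in opposite directions. RINO1 encodes myo-inositol-3-phosphate synthase, the first step from glucose phosphate to myo-inositol. Its signals were 899.6 and 1051.0 in OsPE, 1252.8 and 1289.8 in Osoc, and 1899.1 and 1806.4 in Ossl. No arrays of different lines overlapped, with OsPE lowest and Ossl highest. RINO1 was 1.89-fold higher in Ossl than in OsPE (0.92 ± 0.094 on the log2 scale, SE; adjusted p = 5.79e-05) and 1.45-fold higher in Ossl than in Osoc (0.54 ± 0.094; adjusted p = 0.00266). Its rise in Osoc against OsPE was 1.3-fold (0.38 ± 0.094; adjusted p = 0.0279), and that call ended without OsPE replicate 1 (adjusted p = 0.259), Osoc replicate 1 (0.112) or Osoc replicate 2 (0.161), with arrays centred on their medians (0.0605) and with no filter (0.0565).

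RFS, by its name a raffinose synthase gene, had its highest signals in OsPE as ITPK1 had. They were 2053.8 and 2231.7 in OsPE, 1272.6 and 1486.0 in Osoc, and 1698.0 and 1660.6 in Ossl. Raffinose synthesis uses galactinol, which is made from myo-inositol. RFS fell 1.55-fold in Osoc against OsPE (-0.63 ± 0.09; adjusted p = 0.00117). It fell 1.27-fold in Ossl against OsPE (-0.35 ± 0.09; adjusted p = 0.0348), and without any 1 of the OsPE or Ossl arrays that call ended (adjusted p from 0.0919 to 0.258), as it did with median centring (0.0807) and no filter (0.0734). ABCC13, a transporter needed for phytic acid storage, read 1230 ± 74.5, 1192 ± 14.9 and 1316 ± 55.3 in OsPE, Osoc and Ossl, and did not pass (adjusted p = 0.86, 0.609 and 0.391 in the 3 comparisons). The phosphatidylinositol phosphate kinase gene PIPK1, the only measured member of its list, read 2647 ± 235, 2870 ± 219 and 2684 ± 92.1 and did not pass (adjusted p = 0.502, 0.923 and 0.568).

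**Figure D3:**
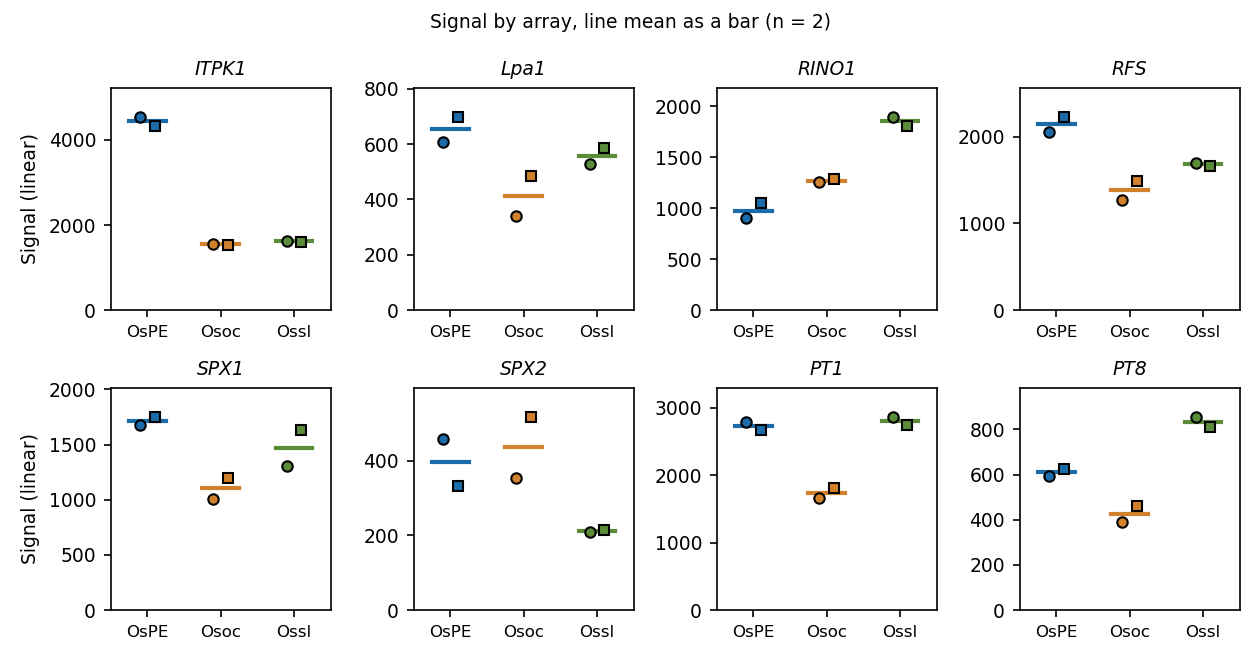
Signal by array (linear scale from 0) for ITPK1 and the 7 pathway genes that passed in at least 1 comparison, with a circle and a square for replicates 1 and 2 and a short bar for the mean of each line. RINO1 is highest in Ossl at 1899.1 and 1806.4, where ITPK1 is low, and PT1 is lowest in Osoc, at 1665.6 and 1819.3.

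Of 19 measured genes of phosphate sensing and transport 16 were tested. In Osoc against OsPE 0 rose and 3 fell, in Ossl against OsPE 1 rose and 1 fell, and in Ossl against Osoc 3 rose and 1 fell. These are 18.8%, 12.5% and 25% of the genes tested, beside 11.9%, 11.7% and 17.1% of all genes.

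The sensors come first. SPX1 had signals of 1674.0 and 1753.7 in OsPE, 1008.6 and 1198.9 in Osoc, and 1308.9 and 1631.4 in Ossl. The Osoc arrays were the lowest. SPX1 fell 1.55-fold in Osoc against OsPE (-0.63 ± 0.11; adjusted p = 0.00503), and it was 1.32-fold higher in Ossl than in Osoc (0.41 ± 0.11; adjusted p = 0.0393). The former call ended without OsPE replicate 2 (adjusted p = 0.059) or Osoc replicate 1 (0.0699), and the latter without OsPE replicate 1 (0.0614), OsPE replicate 2 (0.0619), Osoc replicate 1 (0.28) or Ossl replicate 2 (0.27). The latter call also ended with median centring (adjusted p = 0.0861), with no filter (0.0936) and with the arrays of Ossl and Osoc alone in the fit (0.0603).

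SPX2 was low in Ossl, where its arrays read 208.1 and 214.8. In OsPE they read 458.3 and 333.0, and in Osoc 355.0 and 518.2. The OsPE and Osoc arrays overlapped, and both Ossl arrays lay below them. SPX2 fell 1.79-fold in Ossl against OsPE (-0.84 ± 0.20; adjusted p = 0.0244) and was 1.96-fold lower in Ossl than in Osoc (-0.97 ± 0.20; adjusted p = 0.00843). The first call ended without OsPE replicate 1 (adjusted p = 0.235), Ossl replicate 1 (0.0994) or Ossl replicate 2 (0.0977) and with no filter (0.0688), and the second without Osoc replicate 2 (0.111). SPX4 read 1268 ± 22.8, 1243 ± 25.1 and 1286 ± 85.6 in OsPE, Osoc and Ossl and did not pass, SPX5 did not pass and exceeded the 40th percentile on 2 arrays, and SPX3 was not tested.

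The transcription factor genes PHR1, PHR2 and PHR3, whose products SPX proteins hold back, did not pass on their brightest probe sets. PHR1 read 2487 ± 61.4 in OsPE, 2438 ± 87.6 in Osoc and 2619 ± 343 in Ossl. PHR2, the main regulator of the phosphate starvation response in rice, read 2541 ± 43, 2536 ± 17.5 and 2159 ± 197, and its lowest level, in Ossl, had adjusted p = 0.0913 against OsPE and 0.0798 against Osoc. PHR3 read 999.6 ± 26, 912.9 ± 34.6 and 1092 ± 206. The dimmer probe set of PHR2 did pass: it read 540.8 ± 27.8, 677.4 ± 32.9 and 389.6 ± 0.354, and fell in Ossl by 0.46 against OsPE and by 0.77 against Osoc (log2; adjusted p = 0.0366 and 0.00122). Both probe sets were thus lowest in Ossl, and they differed in the call.

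Among the transporters, PT1 (LOC4331635, a phosphate importer of the PHT1 family) was low in Osoc. Its signals were 2793.7 and 2667.4 in OsPE, 1665.6 and 1819.3 in Osoc, and 2873.2 and 2743.4 in Ossl. The OsPE and Ossl arrays overlapped, with a difference of 0.04 (log2, interval -0.12 to 0.20). ITPK1 differed 2.73-fold between those lines, and a link between these genes was not tested. PT1 fell 1.56-fold in Osoc against OsPE (-0.64 ± 0.075; adjusted p = 0.000296) and was 1.61-fold higher in Ossl than in Osoc (0.68 ± 0.075; adjusted p = 8.63e-05). Its dimmer probe set exceeded the 40th percentile on 2 arrays and did not pass.

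PT8, a high-affinity transporter of the same family, had the order Ossl, OsPE and Osoc. Its signals were 592.3 and 626.3 in OsPE, 391.8 and 460.6 in Osoc, and 856.7 and 811.6 in Ossl, with no overlap. PT8 was 1.93-fold higher in Ossl than in Osoc (0.95 ± 0.12; adjusted p = 0.000295), and its next probe set gave 2.02-fold (adjusted p = 0.000509). The fall in Osoc against OsPE was 1.42-fold (-0.50 ± 0.12; adjusted p = 0.0247) and the rise in Ossl against OsPE 1.36-fold (0.44 ± 0.12; adjusted p = 0.0432). The next probe set passed for the fall (adjusted p = 0.00641) and not for the rise (0.306). On the brightest probe set the fall did not pass without OsPE replicate 1 (adjusted p = 0.102), OsPE replicate 2 (0.168) or Osoc replicate 1 (0.167), or with median centring (0.0587). The rise did not pass without any 1 of the OsPE or Ossl arrays (from 0.112 to 0.233), with median centring (0.106) or with no filter (0.0687).

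PHO1-2, which loads phosphate into the xylem, read 341.2 ± 37.9, 420.0 ± 51.7 and 458.3 ± 81.9 in OsPE, Osoc and Ossl and did not pass (adjusted p = 0.385, 0.185 and 0.749 in the 3 comparisons). PHO1-3, of the same family, was highest in OsPE at 123.0 ± 13.4, with 81.9 ± 9.9 in Osoc and 48.55 ± 4.6 in Ossl. Its difference of -1.11 (log2) in Ossl against OsPE missed the threshold (adjusted p = 0.0553). The remaining transporters of the PHT1 family tested were PT2, PT3, PT4, PT11 and PT12, and none passed in any comparison. Their line means ran from 11.8 for PT11 in OsPE to 171.1 for PT4 in OsPE, against 40th percentiles of 22.5 to 26.0. The smallest adjusted p among them was 0.0816, for PT11 in Ossl (64 ± 3.39) against OsPE (11.8 ± 9.19), and PT6 and PT7 were not tested. Genes of these lists that did not pass are named to account for the lists, after their values were seen. The jasmonate receptor genes COI1a, COI1b and COI2 had OsPE means of 3083 ± 75.4, 7639 ± 121 and 4110 ± 60, and their differences from OsPE lay between -0.13 and -0.01 (log2) in both lines. With limma 0 of these 3 passed in any comparison, beside 11.9%, 11.7% and 17.1% of all genes. At an unadjusted p below 0.05 there were 0.

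The 15 calls among these genes rest on the 2 arrays per line: 6 of them passed whichever array was left out, namely RINO1 in Ossl against both other lines, RFS in Osoc against OsPE, PT1 in Osoc against OsPE and in Ossl against Osoc, and PT8 in Ossl against Osoc. Without the variance modelled as a trend of the signal, 0 of the 29 genes passed with limma in any comparison, and 7, 6 and 6 had an unadjusted p below 0.05.

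Other genes shared the step between OsPE and the other lines. Likeness to ITPK1 was measured over the 6 arrays as the root mean square difference between log2(signal + 16) profiles, each centred on its own mean. A value of 0 is an identical profile, and a flat profile would be 0.699 away from ITPK1. The 10 nearest among 2297 named genes are given as a description, since they were picked for this likeness, and 230 probe sets in all were as near as the tenth. Of these 10 genes 7 had signals above the 40th percentile on all arrays. No shared function or control is implied.

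JAZ10, a repressor of jasmonate responses, was at a distance of 0.178. Its signals on this probe set were 1677.8 and 1897.4 in OsPE, 641.9 and 590.4 in Osoc, and 821.6 and 556.0 in Ossl, steps of 2.85-fold and 2.6-fold where ITPK1 had 2.85-fold and 2.73-fold. Its brightest probe set was farther away, at 0.299, with smaller steps and means of 9735, 5543 and 5021. JAZ9, another repressor of that family, was at 0.220, with signals of 421.6 and 475.3 in OsPE, 183.6 and 188.3 in Osoc, and 241.9 and 195.5 in Ossl. The Osoc and Ossl arrays overlapped for JAZ10 and not for JAZ9, and the OsPE arrays stood apart for both.

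SPY, which in Arabidopsis restrains gibberellin responses, was at 0.257, with 2806 ± 26.8 in OsPE, 1504 ± 50.9 in Osoc and 1312 ± 4.95 in Ossl. BHLH148, a basic helix-loop-helix transcription factor gene, was at 0.3, with 2024 ± 108, 1118 ± 8.06 and 1100 ± 87.1. Both had smaller steps than ITPK1, at 1.86-fold and 2.12-fold for SPY and 1.8-fold and 1.83-fold for BHLH148. LAC4, by its name a laccase gene, was at 0.253, with 113.5 ± 9.76, 49.5 ± 6.65 and 33.55 ± 2.05.

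The DNA methyltransferase gene MET1 (LOC4342575) was at 0.320, with 460.3 ± 20.5 in OsPE, 234.8 ± 61 in Osoc and 149.0 ± 9.19 in Ossl. 4CL.2, a 4-coumarate CoA ligase gene of lignin precursor synthesis, was at 0.331, with 541.0 ± 4.95, 263.9 ± 73.8 and 162.2 ± 12.9. Unlike ITPK1, both had lower means in Ossl than in Osoc, but neither of these differences passed with limma. Their Osoc arrays lay apart, at 277.9 and 191.6 for MET1 and 316.1 and 211.7 for 4CL.2. The other 3, MCM9 (of the MCM helicase family) at 0.140, KRP6 (of the Kip-related cell cycle inhibitors) at 0.268 and MOR1 at 0.319, exceeded the 40th percentile on 2 arrays each, with means of 29.9, 35.2 and 55.7 in OsPE and at most 14.25 in the other lines. Their other tested probe sets were farther away, at 0.805 for MCM9, 0.439 for KRP6, and 0.693 and 0.683 for MOR1, so these 3 likenesses rest on dim signals. With an offset of 1 in place of 16, 6 of the 10 genes were again among the nearest 10.

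**Figure D4:**
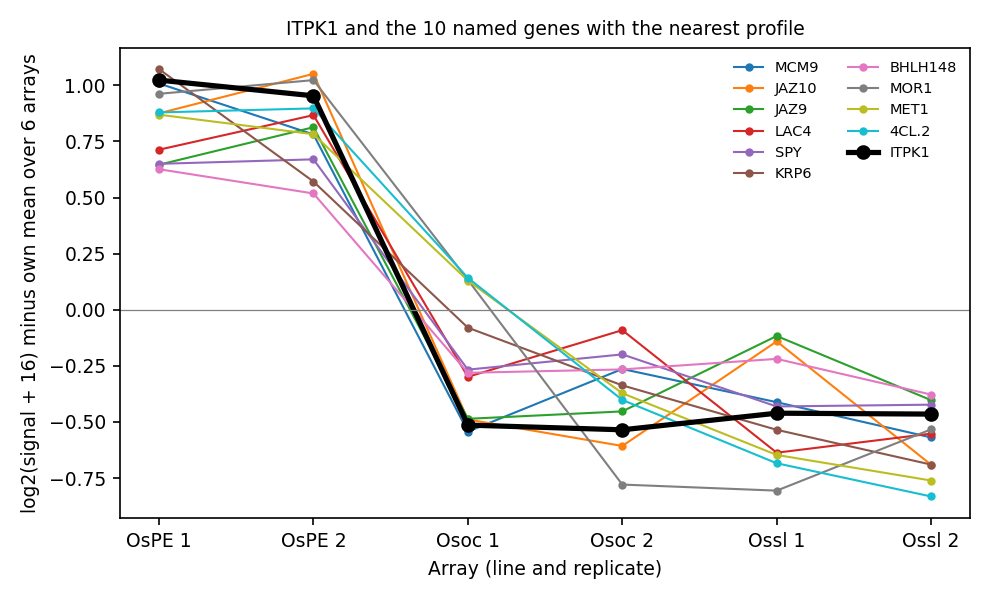
Centred profiles over the 6 arrays, as log2(signal + 16) minus each probe set's own mean, for ITPK1 (thick black) and the 10 named genes nearest to it, chosen for this likeness. All 11 stand highest on the OsPE arrays, and ITPK1 runs from 10.599 to 10.673 on the other 4 arrays before centring.

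Of the 5 annotated genes on each side of ITPK1 on chromosome 10, 4 were measured, by 5 probe sets. HOX15, a homeobox transcription factor gene and the next gene on one side, read 3711 ± 5.37 in OsPE, 3246 ± 50.1 in Osoc and 3435 ± 35.5 in Ossl, and did not pass against OsPE (-0.19 and -0.11, log2; adjusted p = 0.0919 and 0.356). LOC4347945, the fifth gene on that side, fell 1.39-fold in Osoc against OsPE (adjusted p = 0.0178), from 1145 ± 85.1 to 821.0 ± 95.9, with 1023 ± 37.6 in Ossl. That call ended without OsPE replicate 1 (adjusted p = 0.0565), OsPE replicate 2 (0.172) or Osoc replicate 1 (0.153), and without the variance trend (0.242). LOC4347952, the fifth gene on the other side, did not pass (adjusted p = 0.816 and 0.605 against OsPE).

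LOC4347950, the fourth gene on that other side, was far higher in Ossl. On its dimmer probe set the signals were 83.0 and 109.7 in OsPE, 92.7 and 115.1 in Osoc, and 2060.8 and 1947.8 in Ossl. On its brighter one they were 225.4 and 161.9, 170.5 and 239.0, and 2549.0 and 1878.9. The OsPE and Osoc arrays overlapped on both, and the Ossl arrays lay far above. LOC4347950 was 18.1-fold higher in Ossl than in OsPE on the dimmer probe set (4.18 ± 0.18, log2; adjusted p = 3.64e-08) and 10.6-fold on the brighter one (3.41 ± 0.20; adjusted p = 4.56e-07). Against Osoc the folds were 16.9 and 10.1 (adjusted p = 4.41e-08 and 5.59e-07). The tables used here give this gene a locus number and no name.

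**Figure D5:**
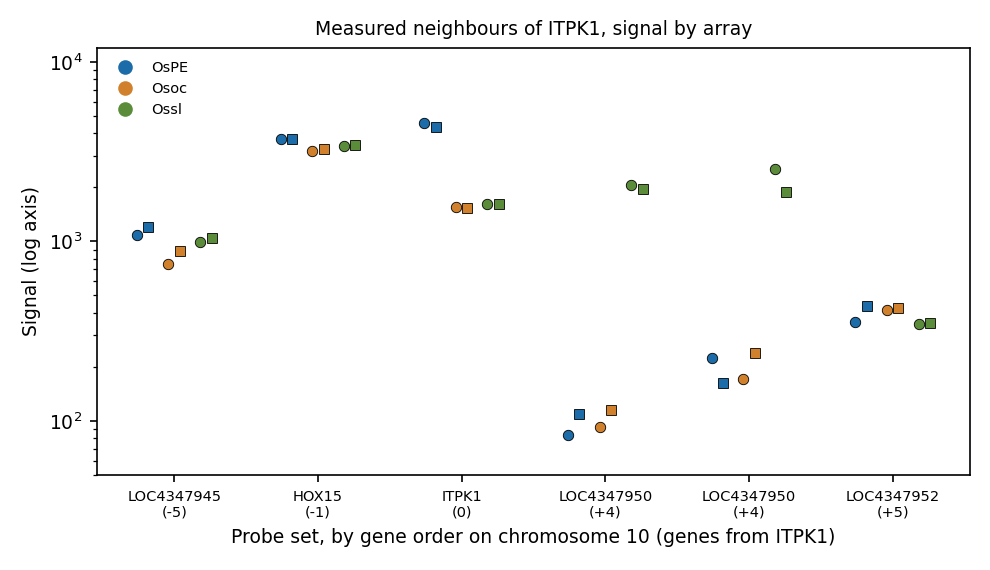
Signal by array (log axis) for ITPK1 and the measured genes among the 5 on each side of it, in the order of the genes on chromosome 10, with circles and squares for replicates 1 and 2. ITPK1 is high in OsPE, while LOC4347950 is high in Ossl, at 2060.8 and 1947.8 on one probe set and 2549.0 and 1878.9 on the other.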

How the data were processed

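The authors deposited a linear signal intensity for each probe set of each array, obtained with GCOS 1.2 per the submitters' processing notes. The sources used here do not name the algorithm. The mean without the lowest and highest 2% was 500.1 on every array, and the deposited scaling was kept. After 123 control probe sets were left out, 57258 remained, and 39629 were tested because they exceeded the 40th percentile of their array on at least 2 of 6 arrays. The log2(signal + 16) values of all 6 arrays were fitted by line with lmFit, contrasts.fit and eBayes with a variance trend, of limma 3.58.1 (R 4.3.3; 3 residual degrees of freedom, prior 8.98). Tests were two-sided with Benjamini-Hochberg adjusted p below 0.05 as the threshold. Their procedure was also run on simulated data whose spread followed the trend of the signal, so that run cannot test the variance trend. The number of arrays limits the precision.

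Genes were named through the probe-to-gene table and the aliases of the reference annotation, which matched 22436 probe sets to 1 gene. ITPK1 and the lists were chosen with earlier results of these data known. Named are all measured genes listed as inositol phosphate kinases. Of each other list, up to 6 members that passed are named (others only to account for a list). Also named are the 10 nearest profiles and the measured genes among 5 on each side. Left out were genes with no probe set or no matching alias, among them MIK and ITPK6. The replicate numbers were not used to pair the arrays. Alternatives were other offsets, scalings, filters and variance models, a replicate block, fits of the compared lines alone, leaving out each array, and any probe set of a gene. Figures were drawn with Python 3.11.15 and matplotlib 3.10.9.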

Additional observations from a re-analysis of the deposited data

How the results depend on the processing

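The ITPK1 differences against OsPE kept their sign under each offset and scaling tried and without each array, from -1.55 to -1.48 in Osoc and from -1.49 to -1.42 in Ossl (log2). Ossl minus Osoc ranged from 0.05 to 0.07 without single arrays and was 0.04 with median centring. Without the variance trend the probe sets called were 28 in Osoc against OsPE, 382 in Ossl against OsPE and 402 between Ossl and Osoc, in place of 2955, 3138 and 4441, and 0 of the pathway genes passed in each. Leaving out single arrays gave 1201 to 3278, 1495 to 2781 and 2342 to 3787 probe sets, and 2 to 6, 1 to 4 and 4 to 6 pathway genes in place of 6, 4 and 5. Median centring left 4, 2 and 4 pathway genes in the 3 comparisons, and no filter left 4, 1 and 4. Of the 15 calls 10 passed with median centring, 9 with no filter and 14 with the compared lines alone. No call of a pathway gene changed direction. Of the 10 nearest profiles 6 were shared with offset 1. Same-numbered arrays did not deviate together over the tested probe sets (correlations of 0.000, 0.001 and 0.014 between lines). The numbers were therefore not used as a pairing, though this cannot show how the arrays were handled. With the replicate block 2958, 3132 and 4423 probe sets and 6, 4 and 5 pathway genes were called. Causes were not tested. Signals near the 40th percentile limit what can be said of SPX5, PT1's dimmer probe set and the genes not tested.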
